A study of Mus musculus with 12 samples.

Results

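The genes described here encode the machinery by which a presynaptic terminal stores, docks and releases transmitter and then retrieves the vesicle membrane. They form a named list of 38 genes, and all 38 were found by symbol among the 12158 genes of the expression table. The list names genes by their function, and it was chosen with earlier results of these data known. All 38 also passed a filter on low values, a mean above −2 log2 RPKM over all libraries, which kept 12102 genes of the table. RPKM is a read count scaled by gene length and library size, which lets levels of different genes be set side by side. The gene lengths used are not given, so small differences between genes could turn on them.

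Dissected forebrain came from C57BL/6N mice heterozygous for a germline Chd8 mutation (Chd8+/del5) and from their wild-type littermates. It was taken on 3 embryonic days (e12.5, e14.5 and e17.5), on the day of birth (P0) and in adults, which the stage label gives as P56 and the protocol as older than that. Chd8 is a chromatin remodelling enzyme, and every cell of a heterozygous animal carries the mutation. The table holds 44 libraries, 8 of e12.5, 9 of e14.5, 10 of e17.5, 11 of P0 and 6 of adults. The labels list 1 wild-type and 1 heterozygous sample for each stage, and no label explains the codes in the column names, so no library was given a genotype. Every value below therefore describes a stage without regard to genotype, and no p-value is given.

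A synaptic vesicle is filled with transmitter by a transporter, tethered and docked at the active zone by scaffold proteins and Rab3, and primed by Munc13. Fusion is driven by the SNARE proteins on the vesicle and the plasma membrane, and synaptotagmins make it depend on calcium. Afterwards NSF and its adaptor SNAPs take the SNARE complex apart, and clathrin adaptors, dynamin and its partners retrieve the membrane. In the mouse forebrain, most neurons are born before birth, while most synapses form in the weeks after birth.

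RefSeq promoter windows of build GRCm38.p6, running from 250 bases before the start of a gene to 50 bases after it, were held for 29 of the 38 genes, 38 windows in all. The following sequences are the bases before the start, on the strand of the gene. Syn1 and Sh3gl2 are shown because they were the only members of the list whose window held the cyclic AMP response element TGACGTCA, and Slc17a7 and Slc17a6 because these 2 transporter genes moved furthest apart. Capitals mark TGACGTCA in Syn1 and Sh3gl2, and in the transporter genes they mark the GC box core GGGCGG on either strand.
Syn1, chrX:20920919-20921168, minus strand: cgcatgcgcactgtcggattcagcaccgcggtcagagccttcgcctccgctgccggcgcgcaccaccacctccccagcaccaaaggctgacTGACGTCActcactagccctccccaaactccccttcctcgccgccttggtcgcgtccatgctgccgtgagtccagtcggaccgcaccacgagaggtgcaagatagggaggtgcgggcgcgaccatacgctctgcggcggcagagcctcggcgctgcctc
Sh3gl2, chr4:85205206-85205455, plus strand: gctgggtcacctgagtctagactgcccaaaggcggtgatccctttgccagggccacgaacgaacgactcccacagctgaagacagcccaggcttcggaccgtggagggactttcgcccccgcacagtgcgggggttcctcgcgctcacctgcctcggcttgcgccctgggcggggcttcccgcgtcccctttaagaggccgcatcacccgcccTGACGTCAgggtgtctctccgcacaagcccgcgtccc
Slc17a7, chr7:45163671-45163920, plus strand: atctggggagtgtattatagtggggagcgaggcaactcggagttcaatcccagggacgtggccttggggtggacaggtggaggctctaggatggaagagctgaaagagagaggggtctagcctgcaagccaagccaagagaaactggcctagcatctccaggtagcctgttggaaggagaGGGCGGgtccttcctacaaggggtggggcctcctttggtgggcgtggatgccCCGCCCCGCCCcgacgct
Slc17a6, chr7:51621580-51621829, plus strand: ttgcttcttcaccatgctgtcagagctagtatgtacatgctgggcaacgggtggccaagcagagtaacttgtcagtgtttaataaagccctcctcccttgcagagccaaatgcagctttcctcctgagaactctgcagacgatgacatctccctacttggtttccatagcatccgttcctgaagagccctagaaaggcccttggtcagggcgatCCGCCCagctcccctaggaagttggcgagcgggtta
The response element began 159 bases before the start in Syn1 and 37 bases before it in Sh3gl2. It was in 5.26% of the windows of the list, 1.79% of all 32851 RefSeq windows and 3.08% of the windows of genes kept in the table. The GC box core was found 3 times before the start of Slc17a7, where the last 2 matches share a base, and 1 time before that of Slc17a6. A second start of Slc17a6 had no match. Of the list's windows, 57.9% held a GC box core, against 35.7% of all windows and 63.9% of windows of genes kept. Both motifs were searched on both strands of whole windows, and a match is letters in a window that says nothing of binding.

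Chd8 itself was read at every stage, with medians of 4.31, 4.01, 3.94, 4.14 and 3.72 log2 RPKM from e12.5 to adult and overlapping ranges at neighbouring stages. With no genotype assigned, it checks no label. The low values of 21 libraries moved in whole steps of a read, and their relative depth ran between 0.61 and 2.29. No e17.5 library gave a depth. Some libraries stood apart from the others of their stage. Among the adults, library 1 lay at least 1 log2 unit above all others in 439 of 11807 genes and was the lowest in 20 of the 38 release machinery genes. At e14.5, library 7 was the lowest in 17 of them, among them the long scaffold genes Bsn (1.11) and Pclo (−0.53). P0 library 10 was the lowest in 20 and e17.5 library 2 in 16. Other libraries stood high: adult library 5 was the highest in 22, e12.5 library 8 in 21 and e14.5 library 2 in 19. These counts were not computed over all genes. Library numbers follow the columns and serve as names. The 10 e17.5 names belong to 2 series of 5. The ranges of the 2 series overlapped for every one of the 38 genes, and for all but 1 of the 12102 genes kept.

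The list stood higher at each later stage by its median. The median over the 38 genes of a library was 3.19 (3.01 to 3.47) at e12.5, 4.54 (4.47 to 4.95) at e14.5, 5.30 (5.07 to 5.56) at e17.5, 5.66 (5.38 to 5.74) at P0 and 7.06 (6.76 to 7.20) in adults. The ranges of neighbouring stages did not overlap except between P0 and e17.5. Their summed RPKM was 581 (544 to 731) at e12.5, 1175 (1081 to 1404) at e14.5, 2074 (1887 to 2405) at e17.5, 2994 (2535 to 3160) at P0 and 10143 (7893 to 12059) in adults. At e12.5 the genes with the highest medians were Syt11 (90.1 RPKM), Vamp2 (57.8), Rab3a (50.1), Cplx2 (39.2) and Syp (29.0). In adults they were Snap25 (2180 RPKM), Syp (829), Vamp2 (807), Slc17a7 (723) and Rab3a (612). The rank of Snap25 among the 12102 genes of a library had a median of 2 in adults and 4196 at e12.5. In bulk tissue, fewer cells of a type and less RNA per cell cannot be told apart, which touches every value here.

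**Figure D1:**
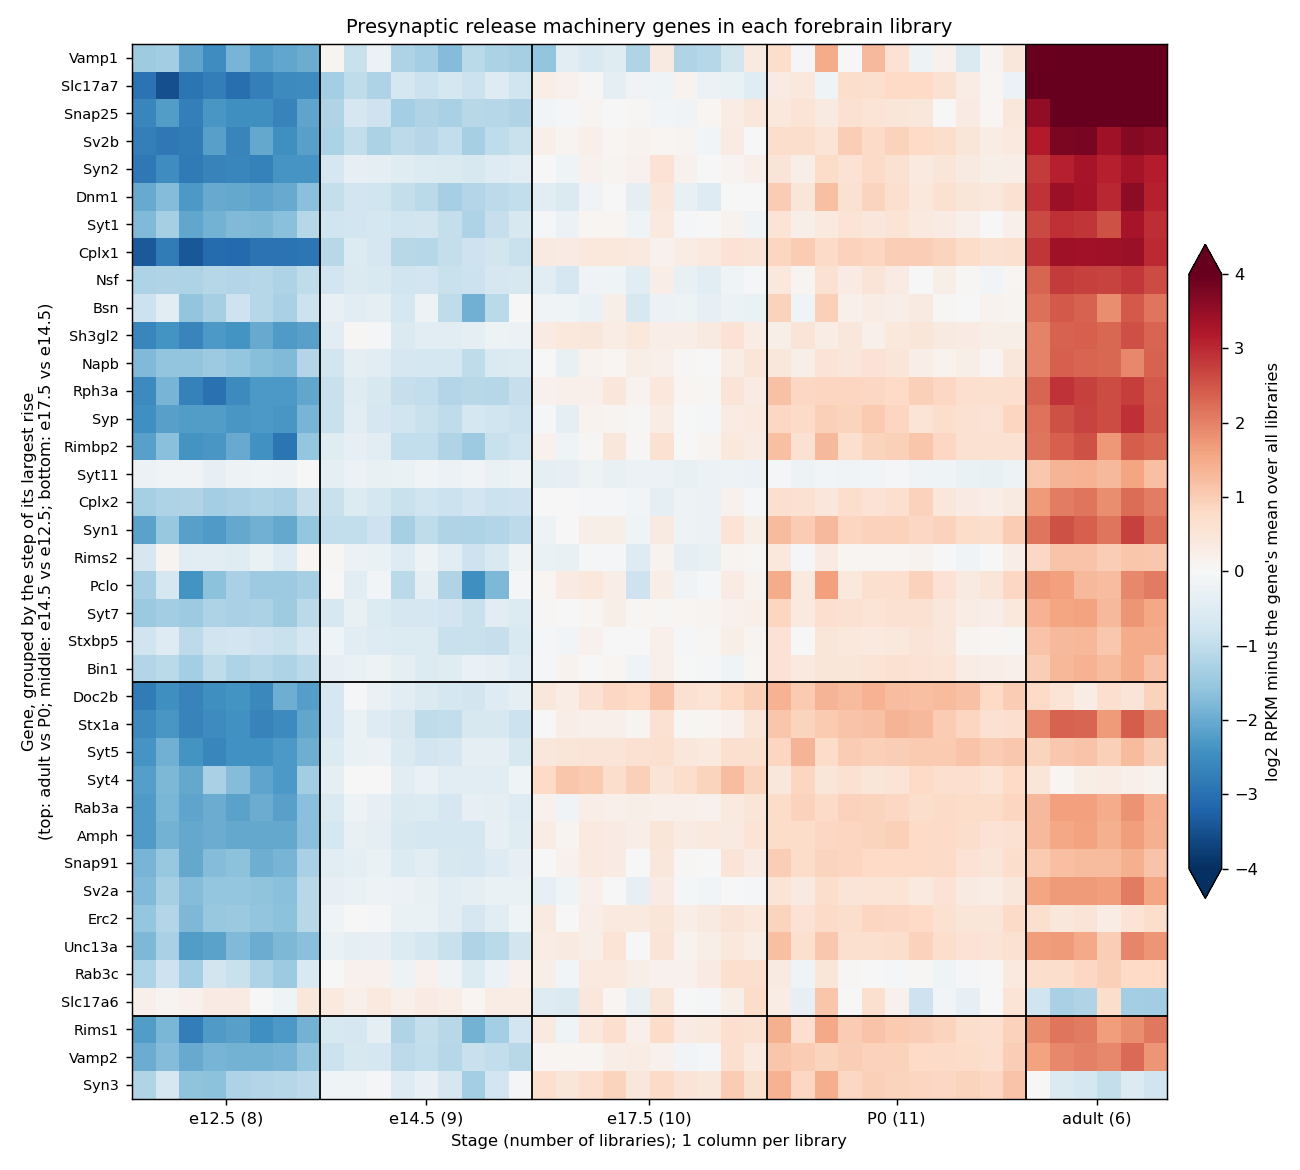
Heat map of the 38 release machinery genes (rows, grouped by the step of their largest rise) in the 44 libraries (columns, by stage), coloured by log2 RPKM minus the gene's mean over all libraries, with colours saturating at 4. The 6 adult columns are the highest for most rows of the upper block, while all adult columns of Syn3 are lower than those of P0, and Slc17a6 has a lower adult median with overlapping ranges.

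A gene was called higher or lower at the later of 2 stages when the ranges of their libraries did not overlap. At e14.5 against e12.5, 28 of the 38 genes were higher and 0 lower, while over all genes 23.1% were higher and 22.3% lower. The median of the 38 differences was 1.17 log2 units, against 0.03 over all genes, and 22 of the 28 were at least 2-fold. Reads were paired, of 100 bp each, at e12.5 and single, of 50 bp, at all later stages, so read type and stage cannot be told apart in this comparison. At the same step 8 of 10 radial glia and progenitor markers and 3 of 4 blood markers were lower, and their part in the differences was not tested. At e17.5 against e14.5, again 28 genes were higher and 0 lower, beside 13.1% higher and 12.1% lower over all genes, with a median difference of 0.77 against −0.03.

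The step from e17.5 to P0 was the smallest by its median difference. The steps cover unequal times, the last running from P0 to P56 or later, and differences were not scaled by time. At P0 against e17.5, 13 of the 38 genes were higher and 0 lower, beside 4.89% higher and 6.28% lower over all genes. The median difference was 0.47, and 0 genes differed by 2-fold or more among those called. This count moved with the setting: 5 genes were called higher after quantile normalization, and 20 were called with 1 name series of 5 e17.5 libraries alone. Fewer libraries by themselves let more ranges lie apart, so the 20 cannot be read beside the 13. No share over all genes was computed under these settings. In adults against P0, 30 genes were higher and 1 lower, beside 29.3% higher and 25.2% lower over all genes. Here the median difference was 1.15, and 23 of the 30 were at least 2-fold. Over the whole single-end span, adult against e14.5, 36 of 38 were higher and 0 lower, beside 30.8% higher and 32.4% lower over all genes, with a median difference of 2.73 against −0.10.

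Of all genes, 14.2% rose at no step, against 0 of the list, which lowers the shares over all genes given here. The largest rise between neighbouring stages was that of e14.5 over e12.5 for 12 genes, 31.6% of the list against 25.0% of all genes. It was that of e17.5 over e14.5 for 3, Rims1, Vamp2 and Syn3, 7.89% against 13.0% of all genes, and that of P0 over e17.5 for 0, against 12.6% of all genes. It was that of adults over P0 for 23 of the 38 genes, 60.5%, against 35.2% of all genes. This step is also by far the longest in time. The adult group was led by Vamp1, Slc17a7 and Snap25, with differences of 4.44, 4.24 and 3.83. Sv2b (2.93), Syn2 (2.65), Dnm1 (2.61), Syt1 (2.51), Cplx1 (2.49), Nsf (2.48), Bsn (2.08) and Sh3gl2 (2.01) followed, and Bin1 came last with 0.82. The e14.5 group was led by Doc2b (1.94), Stx1a (1.89), Syt5 (1.83), Syt4 (1.57) and Rab3a (1.54). Slc17a6 came last in it with 0.11 and overlapping ranges. In 30 of 38 genes the median was higher at every step, and 33 had their highest median in adults. The exceptions in adults were Syn3, Doc2b and Erc2, highest at P0, Syt4, highest at e17.5, and Slc17a6, highest at e14.5. Of the 91 other presynaptic genes described below, 42 were higher at every step and 58 had their highest median in adults. These 2 shares were not computed over all genes. With all 5 stages in use, the step of the largest rise moved under at least 1 setting for 8 genes. For Bin1, Sh3gl2, Pclo and Unc13a the e14.5 and adult differences were within 0.1 of each other. The e17.5 and e14.5 differences were also close in Rims1 (1.35 and 1.30) and Syn3 (0.955 and 0.895). Both genes moved to e14.5 without e14.5 library 4, 6, 7 or 8. Without e12.5, where the e14.5 step does not exist, 9 genes had their largest rise at e17.5 and 28 in adults.

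**Figure D2:**
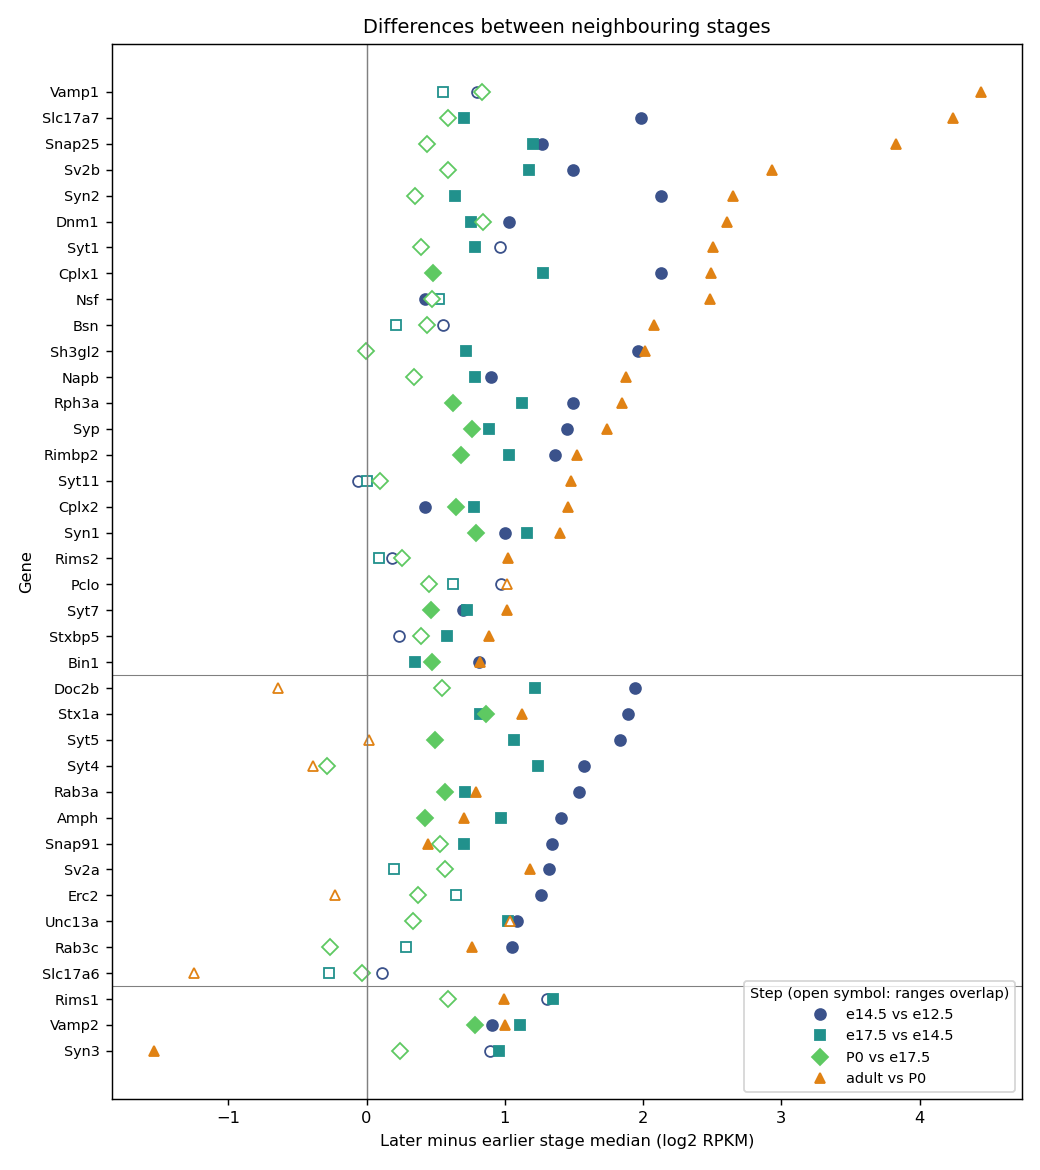
Difference of stage medians (later minus earlier, log2 RPKM) for each of the 38 genes at the 4 steps between neighbouring stages, with filled symbols where 2 stages had ranges apart. Adult against P0 reaches 4.44 in Vamp1, whereas no difference of P0 against e17.5 exceeds 0.87.

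All members of the group of 9 SNARE, complexin and SNARE-handling genes were higher in adults than at P0, beside 29.3% of all genes. Snap25, the plasma membrane SNARE that gives 2 helices to the complex, had medians of 4.35 (4.09 to 4.70) at e12.5, 5.62 (5.45 to 6.14) at e14.5, 6.82 (6.67 to 7.27) at e17.5, 7.26 (6.79 to 7.42) at P0 and 11.09 (10.38 to 11.23) in adults. All 6 adult libraries lay at least 2.96 log2 units above the highest P0 library. Stx1a, the syntaxin of the plasma membrane, had medians of 2.96 (2.81 to 3.40) at e12.5, 4.85 (4.48 to 5.22) at e14.5, 5.67 (5.50 to 6.10) at e17.5, 6.54 (6.10 to 6.84) at P0 and 7.66 (7.18 to 7.91) in adults. It was apart at all 4 steps, and its P0 difference of 0.87 was the largest of the list at that step. Vamp2, the main vesicle SNARE of the forebrain, had medians of 5.85 (5.73 to 6.16) at e12.5, 6.76 (6.61 to 7.08) at e14.5, 7.86 (7.63 to 8.36) at e17.5, 8.65 (8.40 to 8.84) at P0 and 9.66 (9.35 to 9.99) in adults, and was also apart at all 4 steps.

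Vamp1, the other vesicle SNARE of neurons, had medians of −0.28 (−0.74 to 0.35) at e12.5, 0.52 (0.01 to 1.84) at e14.5, 1.07 (0.15 to 2.11) at e17.5, 1.91 (1.16 to 3.22) at P0 and 6.35 (5.69 to 6.83) in adults. Before adulthood its libraries overlapped between neighbouring stages and spread by over 2 log2 units at P0, whereas the lowest adult library lay 2.46 units above the highest P0 library. Complexins bind the assembled SNAREs, clamp fusion and help calcium trigger it. Cplx1 had medians of 2.77 (2.39 to 2.97) at e12.5, 4.90 (4.64 to 5.22) at e14.5, 6.17 (5.96 to 6.37) at e17.5, 6.65 (6.38 to 6.79) at P0 and 9.14 (8.63 to 9.23) in adults. Cplx2 had medians of 5.29 (5.21 to 5.63) at e12.5, 5.72 (5.66 to 5.996) at e14.5, 6.50 (6.16 to 6.74) at e17.5, 7.14 (6.81 to 7.47) at P0 and 8.60 (8.26 to 8.79) in adults. Cplx1 had the largest difference of the list at e14.5, 2.13, where that of Cplx2 was 0.42.

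Nsf, the ATPase that takes SNARE complexes apart, had medians of 4.54, 4.97, 5.49 and 5.96 from e12.5 to P0 and of 8.45 (8.07 to 8.57) in adults. Its difference of 2.48 in adults against P0 compared with at most 0.53 at any earlier step. Napb, the brain form of the SNAP adaptor, was 1.88 higher in adults than at P0. Stxbp5, which encodes tomosyn, an inhibitor of SNARE assembly, was the smallest of the 9 at that step with 0.88.

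The calcium sensors divided between genes that were higher in adults and genes that were not. Of 7 synaptotagmin, Doc2 and rabphilin genes, 4 were higher in adults than at P0 and 0 lower, with Syt4, Syt5 and Doc2b overlapping. Over all genes 29.3% were higher and 25.2% lower. Syt1, the sensor of fast synchronous release, had medians of 4.25 (3.95 to 4.87) at e12.5, 5.21 (4.78 to 5.36) at e14.5, 5.999 (5.77 to 6.40) at e17.5, 6.40 (6.04 to 6.58) at P0 and 8.90 (8.58 to 9.33) in adults. All adult libraries lay 2.001 units or more above every P0 library. Syt4, whose first C2 domain lacks a calcium-binding residue, had medians of 4.17 (3.78 to 4.80) at e12.5, 5.74 (5.65 to 6.11) at e14.5, 6.98 (6.60 to 7.32) at e17.5, 6.69 (6.54 to 6.95) at P0 and 6.30 (6.17 to 6.56) in adults. It was higher at e14.5 and at e17.5 than at the stage before, and its adult median was 0.39 below that of P0 with ranges that overlapped by 0.01.

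Syt5 had medians of 3.57 (3.34 to 4.03) at e12.5, 5.40 (5.19 to 5.72) at e14.5, 6.46 (6.34 to 6.60) at e17.5, 6.96 (6.68 to 7.32) at P0 and 6.98 (6.83 to 7.20) in adults. Its median differed by 0.02 between adults and P0. Syt11, which does not bind calcium, had medians of 6.49 (6.33 to 6.67) at e12.5, 6.43 (6.30 to 6.54) at e14.5, 6.43 (6.27 to 6.46) at e17.5, 6.53 (6.39 to 6.63) at P0 and 8.01 (7.76 to 8.25) in adults. It was the flattest gene of the list before birth, with no median moving by more than 0.10 at a step, and it was then 1.48 higher in adults than at P0. Doc2b, a high-affinity sensor linked to spontaneous release, had medians of 0.51 (0.18 to 1.004) at e12.5, 2.46 (2.22 to 2.90) at e14.5, 3.68 (3.26 to 4.12) at e17.5, 4.22 (3.77 to 4.36) at P0 and 3.58 (3.26 to 3.89) in adults. Its adult median lay 0.64 below that of P0, with overlapping ranges. Syt7, the slow sensor of asynchronous release and facilitation, was higher at every step, with differences of 0.70, 0.73, 0.46 and 1.01 in stage order. Rph3a, a Rab3 effector with C2 domains, was likewise higher at every step, by 1.50, 1.12, 0.63 and 1.85.

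Synapsins coat vesicles and hold them in the reserve pool. Syn1 had medians of 4.01 (3.78 to 4.53) at e12.5, 5.01 (4.72 to 5.23) at e14.5, 6.17 (5.82 to 6.59) at e17.5, 6.96 (6.75 to 7.35) at P0 and 8.35 (8.18 to 8.79) in adults, higher at every step. Syn2 had medians of 1.26 (1.02 to 1.55) at e12.5, 3.39 (3.23 to 3.58) at e14.5, 4.03 (3.72 to 4.49) at e17.5, 4.38 (4.12 to 4.65) at P0 and 7.03 (6.69 to 7.22) in adults. Its differences were 2.13 at e14.5 and 2.65 in adults, with 0.64 and 0.35 at the steps between. Syn3 had medians of 1.80 (1.34 to 2.33) at e12.5, 2.70 (1.62 to 2.94) at e14.5, 3.65 (3.44 to 4.01) at e17.5, 3.89 (3.81 to 4.46) at P0 and 2.35 (2.05 to 2.98) in adults. It was the only gene of the 38 called lower at any step with all libraries and the values as deposited, with all 6 adult libraries under every P0 library and a difference of −1.54. That count of 1 became 2, with Syt4 added, after quantile normalization or median centring. It was also 2 without P0 library 1 or adult library 1 (Syt4 added) and without P0 library 10 or adult library 6 (Doc2b added). Without adult libraries 1 and 4 together it was 3, with Syt4 and Slc17a6 added. Syp, which encodes the vesicle protein synaptophysin, was higher at every step with medians of 9.70 in adults and 7.96 at P0.

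Sv2a and Sv2b encode vesicle glycoproteins that support release, and SV2A is the binding site of the antiepileptic drug levetiracetam. Sv2a had medians of 4.02 (3.84 to 4.49) at e12.5, 5.34 (5.16 to 5.40) at e14.5, 5.54 (5.28 to 5.93) at e17.5, 6.11 (5.91 to 6.33) at P0 and 7.29 (7.18 to 7.68) in adults. Sv2b had medians of 0.84 (0.54 to 1.34) at e12.5, 2.33 (2.08 to 2.51) at e14.5, 3.51 (3.28 to 3.72) at e17.5, 4.09 (3.68 to 4.38) at P0 and 7.02 (6.55 to 7.19) in adults. Sv2a had the higher RPKM throughout. Sv2b had the larger difference of medians at all 4 steps, by 2.93 against 1.18 in adults over P0.

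The active zone is represented by 7 scaffold and priming genes. At e14.5 against e12.5 and again at e17.5 against e14.5, 3 of 7 were higher and 0 lower, beside 23.1% and 13.1% higher over all genes. Rims1, which docks vesicles and recruits calcium channels, had medians of 0.98 (0.45 to 1.41) at e12.5, 2.28 (1.36 to 2.87) at e14.5, 3.63 (3.06 to 3.98) at e17.5, 4.22 (3.89 to 4.76) at P0 and 5.22 (4.92 to 5.36) in adults. Rims2 had medians of 2.77 (2.54 to 3.30) at e12.5, 2.95 (2.37 to 3.26) at e14.5, 3.04 (2.68 to 3.34) at e17.5, 3.29 (3.06 to 3.63) at P0 and 4.31 (4.03 to 4.35) in adults. The first of the pair differed by 1.30 and 1.35 at the first 2 steps and the other by 0.18 and 0.09. Without e14.5 library 7, the lowest of its stage for Rims1 at 1.36, the e14.5 and e12.5 ranges of Rims1 no longer overlapped.

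The giant scaffold genes Bsn and Pclo were low before birth. Bsn had medians of 2.01, 2.57, 2.78 and 3.22 from e12.5 to P0, all with overlapping neighbours, and 5.30 (4.87 to 5.48) in adults. Pclo had medians of 0.51, 1.48, 2.11, 2.56 and 3.58 in stage order, and its ranges overlapped at all 4 steps but not between adults and e14.5. Unc13a, which encodes the priming factor Munc13-1, was higher at e14.5 (1.09) and at e17.5 (1.02), while its adult range began at 5.26, under the highest P0 library at 5.48. Rimbp2, which links RIMs to calcium channels, was higher at all 4 steps, by 1.36, 1.03, 0.69 and 1.52. Erc2, the CAST scaffold, had medians of 2.99 (2.73 to 3.41) at e12.5, 4.25 (3.86 to 4.53) at e14.5, 4.90 (4.52 to 5.03) at e17.5, 5.27 (5.01 to 5.42) at P0 and 5.05 (4.81 to 5.22) in adults. Its adult median lay 0.23 below that of P0, within overlapping ranges.

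Rab3 GTPases bring vesicles to the active zone. Rab3a was higher at every step, by 1.54, 0.71, 0.57 and 0.79. Rab3c had medians of 3.98 (3.59 to 4.42) at e12.5, 5.03 (4.49 to 5.21) at e14.5, 5.32 (4.93 to 5.69) at e17.5, 5.05 (4.86 to 5.51) at P0 and 5.82 (5.72 to 5.97) in adults. It overlapped at the 2 middle steps, with a P0 median 0.26 below that of e17.5, and was 0.76 higher in adults than at P0.

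The 5 endocytosis genes were all higher at e14.5 than at e12.5, at e17.5 than at e14.5 and in adults than at P0. Over all genes the shares higher at these steps were 23.1%, 13.1% and 29.3%. At P0 against e17.5, 2 of 5 were higher, beside 4.89% of all genes. Dnm1, the neuronal dynamin that cuts vesicles from the membrane, had medians of 3.80 (3.52 to 4.13) at e12.5, 4.84 (4.49 to 5.04) at e14.5, 5.59 (5.24 to 6.27) at e17.5, 6.43 (6.23 to 7.02) at P0 and 9.04 (8.72 to 9.40) in adults. Its P0 difference of 0.84 was among the 3 largest of that step but came with overlapping ranges. Sh3gl2, which encodes endophilin A1, a dynamin partner, had medians of 2.64 (2.33 to 2.98) at e12.5, 4.60 (4.40 to 5.03) at e14.5, 5.32 (5.23 to 5.56) at e17.5, 5.31 (5.19 to 5.49) at P0 and 7.33 (6.97 to 7.56) in adults. Its median was level between e17.5 and P0, with a difference of −0.01. Amph and Bin1, the amphiphysins, and Snap91, the clathrin adaptor AP180, were higher in adults than at P0 by 0.71, 0.82 and 0.44.

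**Figure D3:**
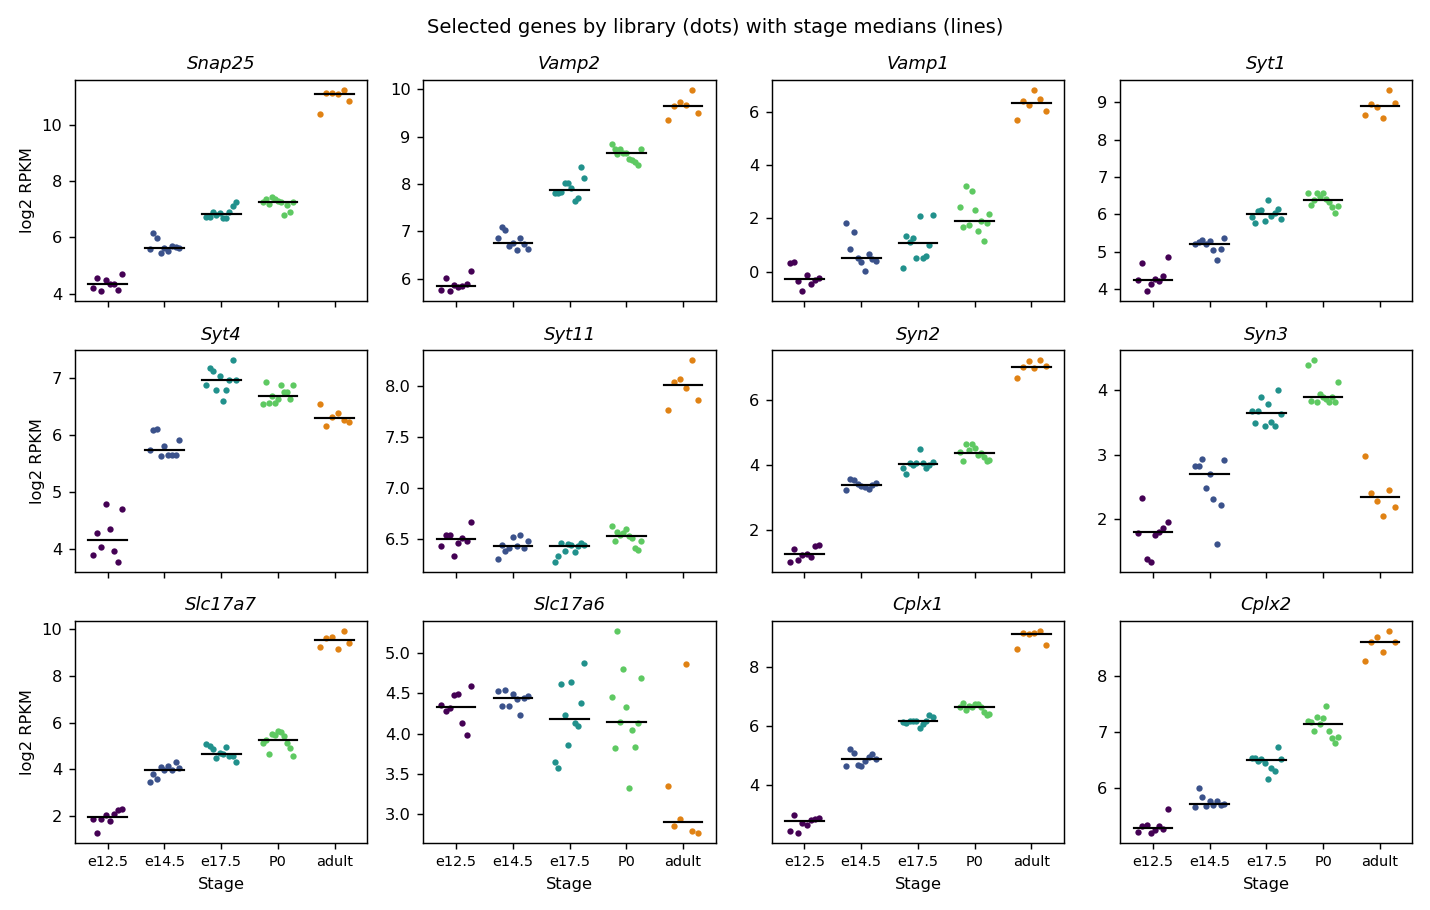
log2 RPKM of 12 genes in each library (dots, coloured by stage) with the stage median as a line; each panel has its own vertical scale. Snap25, Vamp1 and Slc17a7 show a gap between P0 and adult libraries, Syt11 is flat up to P0, and Syn3 is lower in adults than at P0.

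The vesicular glutamate transporters were the paralogues that moved furthest apart. Slc17a7 encodes VGLUT1, the transporter of most cortical and hippocampal excitatory neurons, and Slc17a6 encodes VGLUT2, that of thalamic and other subcortical excitatory neurons. Slc17a7 had medians of 1.98 (1.31 to 2.32) at e12.5, 3.97 (3.47 to 4.31) at e14.5, 4.67 (4.33 to 5.08) at e17.5, 5.26 (4.59 to 5.62) at P0 and 9.50 (9.13 to 9.90) in adults. The lowest adult library stood 3.51 units above the highest P0 library. Slc17a6 had medians of 4.34 (3.98 to 4.60) at e12.5, 4.45 (4.23 to 4.54) at e14.5, 4.18 (3.57 to 4.88) at e17.5, 4.15 (3.32 to 5.27) at P0 and 2.90 (2.77 to 4.86) in adults. It was not apart at any step. Adult library 4 held 4.86 while the other 5 adults lay between 2.77 and 3.35, and the other 5 were all lower than every e14.5 library.

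Tcf7l2 and Shox2, transcription factor genes of the thalamus picked after their values had been seen, are set here beside the spread of Slc17a6 at the last 3 stages. At e17.5, the library with the highest Slc17a6 (4.88) had 6.71 log2 RPKM of Tcf7l2 and 3.60 of Shox2, and that with the lowest (3.57) had −0.17 and −4.17. At P0, the library with the highest Slc17a6 (5.27) had 5.78 of Tcf7l2 and 3.15 of Shox2, and that with the lowest (3.32) had 1.90 and −3.20. Adult library 4 held 3.68 of Tcf7l2 and 2.58 of Shox2, while the highest of the other adults were 0.81 and −2.86. The same libraries were the highest of their stage in Vamp1, with 2.11 at e17.5, 3.22 at P0 and 6.83 in adults. At e12.5 and e14.5 the library with the highest Slc17a6 held −0.23 and 1.51 of Vamp1, under stage maxima of 0.35 and 1.84. Tcf7l2 in the libraries with the highest and lowest Slc17a6 was 6.69 and 4.36 at e12.5, and 5.59 and 5.54 at e14.5. The part of tissue composition in these values was not tested.

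Paralogues were compared as differences within a library, on the log2 scale, for 15 pairs. In 7 pairs the sign of the median difference changed between stages. Read type and stage cannot be told apart in any change between e12.5 and a later stage, here as in the calls above. Slc17a7 minus Slc17a6 had medians of −2.42 (−2.97 to −1.71) at e12.5, −0.42 (−1.06 to −0.14) at e14.5, 0.37 (−0.55 to 1.43) at e17.5, 1.29 (−0.62 to 2.29) at P0 and 6.65 (4.27 to 7.11) in adults. It was below 0 in all 17 libraries of e12.5 and e14.5, above 0 in 9 of 10 at e17.5 and 9 of 11 at P0, and above 0 in all 6 adults. Without adult library 4 the adult differences were 5.85 to 7.11. This was the largest shift among the pairs, 9.07 log2 units in adults against e12.5, a span that includes the change of read type.

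Syn2 minus Syn3 had medians of −0.45 (−0.90 to −0.10) at e12.5, 0.75 (0.41 to 1.63) at e14.5, 0.44 (−0.002 to 0.71) at e17.5, 0.36 (0.03 to 0.71) at P0 and 4.81 (3.70 to 4.94) in adults. All e12.5 libraries held more Syn3 and all adults more Syn2, by a median of 28.1-fold. Syn1 minus Syn3 was 2.28 at e12.5, 2.29 at e14.5, 2.50 at e17.5, 3.005 at P0 and 6.13 in adults. In the group of synaptotagmins, Syt1 minus Syt4 had medians of 0.21 (−0.67 to 0.57) at e12.5, −0.57 (−0.88 to −0.43) at e14.5, −0.99 (−1.42 to −0.21) at e17.5, −0.41 (−0.71 to 0.03) at P0 and 2.63 (2.10 to 3.05) in adults. Syt4 was above Syt1 in every e14.5 and e17.5 library and in 10 of 11 at P0, and Syt1 above Syt4 in all 6 adults.

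Syt1 minus Syt5 had medians of 0.70, −0.20, −0.44, −0.57 and 1.87 in stage order. Syt4 minus Syt11 had medians of −2.37 (−2.70 to −1.53) at e12.5, −0.70 (−0.88 to −0.28) at e14.5, 0.57 (0.16 to 0.86) at e17.5, 0.25 (−0.08 to 0.47) at P0 and −1.68 (−1.97 to −1.20) in adults. Syt4 thus exceeded Syt11 in 10 of 10 libraries at e17.5 and 10 of 11 at P0, and in 0 at the other stages. For the RIM genes, Rims1 minus Rims2 had medians of −1.84 (−2.33 to −1.54) at e12.5, −0.66 (−1.01 to −0.08) at e14.5, 0.64 (0.15 to 0.79) at e17.5, 0.90 (0.70 to 1.23) at P0 and 0.997 (0.71 to 1.06) in adults, below 0 in all libraries up to e14.5 and above 0 in all from e17.5.

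Cplx1 minus Cplx2 had medians of −2.55 (−2.95 to −2.36) at e12.5, −0.83 (−1.12 to −0.64) at e14.5, −0.29 (−0.42 to −0.13) at e17.5, −0.48 (−0.70 to −0.37) at P0 and 0.44 (0.17 to 0.73) in adults. Cplx2 was the higher of the pair in every library before adulthood and Cplx1 in all 6 adults. Other pairs kept their order and changed in size. Sv2a minus Sv2b had medians of 3.23 (2.65 to 3.74) at e12.5, 3.06 (2.75 to 3.28) at e14.5, 2.07 (1.69 to 2.47) at e17.5, 2.03 (1.73 to 2.38) at P0 and 0.35 (0.12 to 0.63) in adults. Vamp2 stayed above Vamp1 everywhere, with a median Vamp1 minus Vamp2 of −3.46 in adults and −6.55 at P0. Rab3a minus Rab3c was 3.39 in adults and 1.64 at e12.5, and Syt1 minus Syt7 was 2.80 in adults and 1.34 at P0. Amph minus Bin1 and Bsn minus Pclo each moved by less than 1.2 over the stages, and Syn1 minus Syn2 by 1.47.

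**Figure D4:**
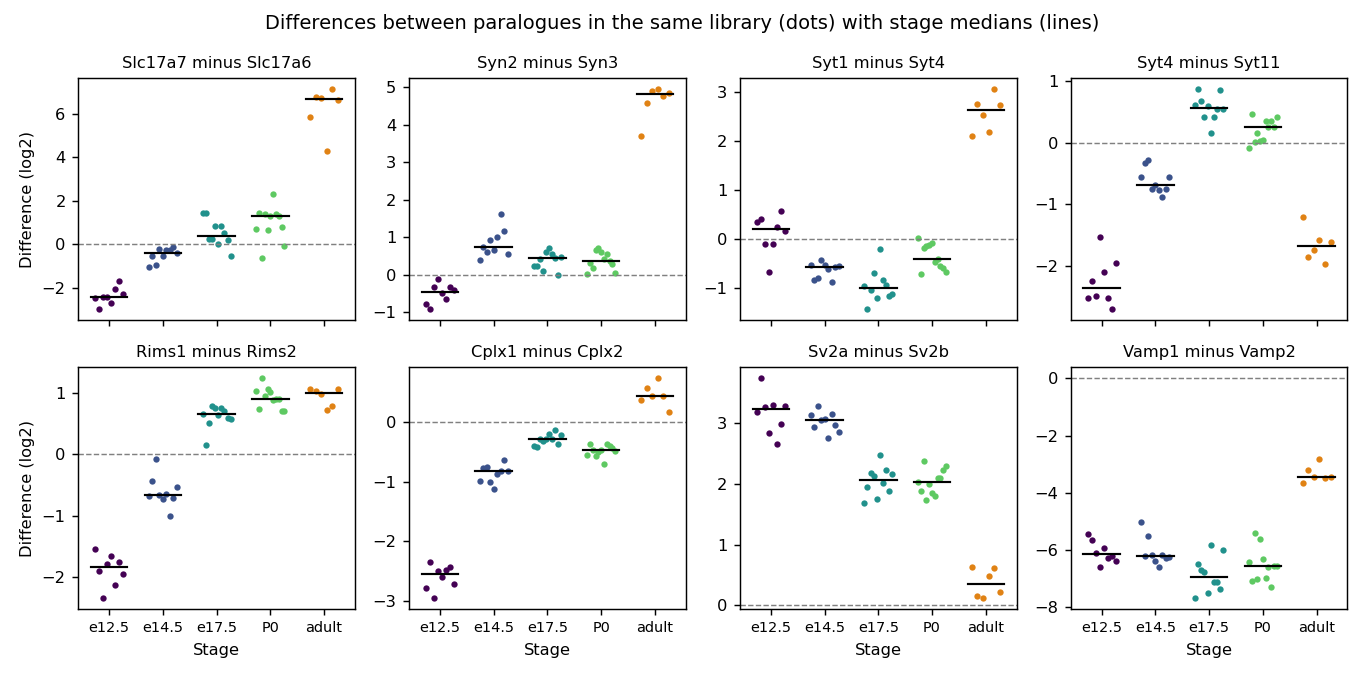
Difference of log2 RPKM between 2 paralogues in the same library (dots) with the stage median (line), for 8 pairs; the dashed line marks equal levels. Slc17a7 minus Slc17a6, Rims1 minus Rims2 and Cplx1 minus Cplx2 cross from below 0 at e12.5 to above 0 in adults, and Syt4 minus Syt11 is above 0 at e17.5 and P0 alone by its medians.

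After birth the 10 neuron markers chosen here gave other counts than the list of 38. Of the 10, 3 were higher in adults than at P0 (Rbfox3, Nefl and Nefm) and 6 lower, beside 29.3% higher and 25.2% lower over all genes. Among the lower were Tubb3 (8.28 in adults, 10.85 at P0) and Gap43 (7.73 in adults, 9.77 at P0). Per library, the median of the 10 was 6.89 (6.84 to 7.32) at e12.5, 7.31 (7.08 to 7.43) at e14.5, 7.69 (7.57 to 7.83) at e17.5, 7.76 (7.65 to 7.90) at P0 and 7.54 (7.30 to 7.66) in adults. The median of the 38 genes minus that of the markers was −3.76 (−3.85 to −3.64) at e12.5, −2.73 (−2.91 to −2.36) at e14.5, −2.39 (−2.56 to −2.17) at e17.5, −2.17 (−2.38 to −1.96) at P0 and −0.45 (−0.80 to −0.21) in adults. The ranges of this difference were apart between e14.5 and e12.5 and between adult and P0, and overlapped at the 2 steps between. The difference depends on which markers make up the list of 10.

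**Figure D5:**
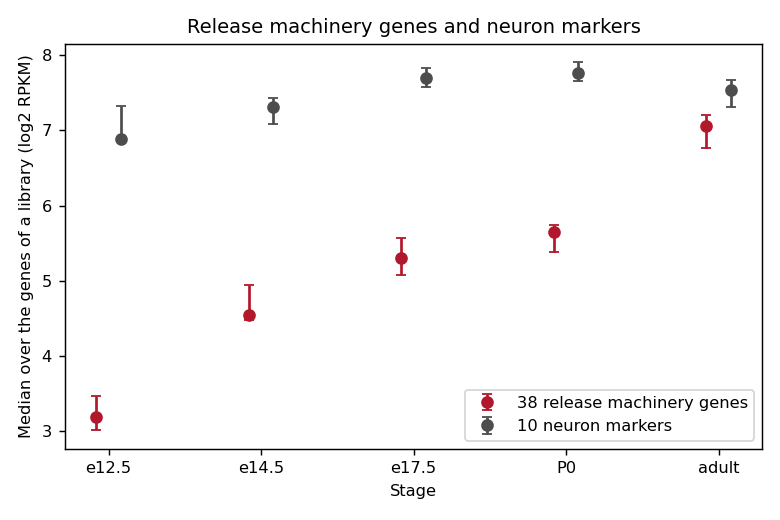
Median log2 RPKM over the 38 release machinery genes and over 10 neuron markers in a library, as the stage median (point) and the lowest and highest library (bars). The release machinery genes have a median of 7.06 in adults and 5.66 at P0, while the neuron markers have 7.54 in adults and 7.76 at P0.

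Markers of other cells also differed between stages. At e14.5 against e12.5, 8 of 10 radial glia and progenitor markers were lower and 1 higher, with summed levels of 1347 to 1923 RPKM at e14.5 and 1680 to 1867 at e12.5. At e17.5 against e14.5, 8 of the 10 were again lower and 0 higher, with 1011 to 1250 RPKM at e17.5. Of 6 excitatory neuron markers, 4 were higher at e14.5 than at e12.5 and 3 at e17.5 than at e14.5, with 0 lower at either step. Their summed level was 95.9 to 142 RPKM at e12.5, 393 to 517 at e14.5 and 446 to 992 at e17.5. Of 4 blood markers, 3 were lower at each of these steps and 0 higher, with 1679 to 4568 RPKM at e12.5, 62.6 to 527.6 at e14.5 and 4.90 to 19.4 at e17.5. Of 9 oligodendrocyte markers, 8 were higher in adults than at P0 and 0 lower, and their summed level was 946 to 2247 RPKM in adults and 90.2 to 132 at P0. All 6 microglia markers were higher, with 136 to 259 RPKM in adults and 47.2 to 75.9 at P0. Of 7 astrocyte markers 4 were higher and 0 lower, with 487 to 836 RPKM in adults and 173 to 256 at P0. Of 10 radial glia and progenitor markers 7 were lower and 1 higher, with 79.1 to 465 RPKM in adults and 800 to 1050 at P0. No oligodendrocyte, microglia or astrocyte marker had a median under −2 in adults or at P0. In adults 2 progenitor markers did, and 3 blood markers did at both stages. The part of all these cells in the differences of the release machinery genes was not tested. In adults against P0, 2 of the 6 excitatory neuron markers were higher and 2 lower. Nrgn and Camk2a had medians of 10.91 and 9.58 in adults and 8.08 and 5.14 at P0. Neurod6 and Neurod2 went the other way, with 5.62 and 5.55 in adults and 8.39 and 7.22 at P0. Of 6 inhibitory neuron markers, 3 were higher in adults than at P0 and 3 lower. Gad1 had 7.46 in adults and 5.60 at P0, whereas Dlx1 had 2.72 in adults and 5.45 at P0.

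A further 91 presynaptic genes that are not in the list of 38, out of 97 looked for, gave the following counts. They held 41 genes higher and 6 lower at e14.5 against e12.5, beside 23.1% higher and 22.3% lower over all genes. At e17.5 against e14.5 they held 30 higher and 5 lower, beside 13.1% and 12.1%. At P0 against e17.5 they held 9 higher and 2 lower, beside 4.89% and 6.28% over all genes. In adults against P0 they held 49 higher and 12 lower, beside 29.3% and 25.2%. Among the largest differences of genes called higher were those of Sncb (2.62) and Syt3 (2.28) at e14.5, and that of Sncb (1.63) at e17.5. At P0 they were those of Sncb (1.33) and of Cacna1a (0.81), which encodes the P/Q-type calcium channel. In adults they were those of Syt2 (3.87), a fast calcium sensor, and Syt12 (3.75).

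The SNARE genes Snap23 and Vamp3, which most cell types use, were lower at e14.5, e17.5 and P0 than at the stage before each. Snap23 differed by −1.14, −0.43 and −0.53, and Vamp3 by −0.65, −0.78 and −0.72. Unc13b, a paralogue of Unc13a, and Stxbp4 were lower at e14.5 (−0.45 and −0.79) and at e17.5 (−0.58 and −0.56). Ppfia1 (−0.55) and the clathrin adaptor gene Ap2m1 (−1.88) were lower at e14.5, where read type differs, and the monoamine transporter gene Slc18a2 (−1.20) at e17.5. In adults against P0 the 12 lower genes included Lin7c (−2.06), Erc1 (−1.69), a paralogue of Erc2, and Rab3d (−1.49). The others were Snap29 (−1.01), Stx7 (−0.79), Sh3gl3 (−0.72), Ppfia1 (−0.64), Dnm2 (−0.61), Cask (−0.61), Clta (−0.58), Ppfia2 (−0.58) and Stx12 (−0.39).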

How the data were processed

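Per the labels' protocols, RNA libraries came from polyadenylated RNA of dissected forebrain with a stranded kit. The authors deposited a table of log RPKM values, taken here as log2, with an offset that is not stated, so a difference of a low gene is understated. Per the submitters' processing notes, tools included STAR 2.4.2a and the build was mm9. The sources used here do not give the counter, annotation, gene filter or scaling between libraries. A list of Chd8 peaks was not used here.

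Column names give a stage and unexplained codes, and 0 of 44 columns could be tied to 1 labelled sample, so libraries were described by stage, with medians, ranges and no test. No source used here says whether they are separate animals. Genes with a mean above −2 log2 RPKM were kept. A gene was called where the ranges of 2 stages were apart. The members, their roles, the 15 paralogue pairs, the 97 other presynaptic genes and the marker lists were chosen with earlier results of these data known. Full values were given for the 3 largest and 3 smallest differences of each step, members with a lower median at a step, and pairs whose median difference changed sign or moved by 2 or more. Of the other presynaptic genes, the 2 largest differences of each step and those against the main direction were named, except 1 result that is not reported here. Alternatives were quantile normalization, median centring, log2(RPKM + 1), no filter, and leaving out a library or a stage. Python 3.11.15, pandas 2.3.3 and numpy 2.4.6 were used.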

Additional observations from a re-analysis of the deposited data

Results flagged for a closer look

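At the 4 stages with 4 to 10 libraries, 216 sets of values (38 genes, 15 paralogue differences and the median of the list at each stage) were searched for a library whose gap to its nearest neighbour took up too much of the range. Chance flags about 1 in 20 sets, 10.8 here, and 13 were flagged. P0, with 11 libraries, was not searched. All values are log2 RPKM or differences of it, and the cause of each was not tested.

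At e12.5, Cplx2 was 5.63 in library 8, with the others between 5.21 and 5.34. Syt1 minus Syt5 was 0.40 in library 3, with the others between 0.66 and 0.89. At e17.5, library 2 was low in Rab3a (7.55, others 7.86 to 8.17), Erc2 (4.52, others 4.77 to 5.03), Rims1 minus Rims2 (0.15, others 0.50 to 0.79) and Amph minus Bin1 (−0.75, others −0.48 to −0.23). Library 6 of that stage was high in Syn2 (4.49, others 3.72 to 4.11) and Syt1 minus Syt7 (1.82, others 1.14 to 1.49), and library 5 low in Pclo (1.09, others 1.76 to 2.32).

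Among adults, Sv2a was 7.68 in library 5, with the others between 7.18 and 7.33. Slc17a6 was 4.86 in library 4, with the others between 2.77 and 3.35. In library 1, Syn1 minus Syn3 was 5.21 (others 6.09 to 6.34) and Syn2 minus Syn3 was 3.70 (others 4.59 to 4.94).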

How the results depend on the processing

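No called difference of a member changed sign under quantile normalization or median centring. The other settings could not change one. Leaving out libraries keeps ranges apart, and log2(RPKM + 1) and no filter keep the order of libraries. The sign of a paralogue pair that was the same in all libraries of a stage could not change under the settings tried for pairs. Quantile normalization gave 5 members higher at P0 against e17.5, 1 of the other presynaptic genes lower at that step, and 2 members lower in adults against P0. Median centring also gave 2 members lower in adults against P0. Without e17.5, 10 members had their largest rise at P0 over e14.5, and without e12.5, 9 had it at e17.5 over e14.5. Shares over all genes were not computed under the alternative settings. The next 2 settings were chosen after seeing the data, and both leave out libraries, which by itself lets more ranges lie apart. Without adult libraries 1 and 4, 3 members were lower in adults against P0 and 1 against e14.5. With the 5 e17.5 libraries whose names end in S158 to S163 alone, 8 of the other presynaptic genes were lower at e17.5 against e14.5, while at P0 against e17.5 20 members and 25 of the others were higher and 1 member had its largest rise. Leaving out each library in turn, a planned setting, gave between 1 and 3 members with the largest rise at e17.5 over e14.5 (1 without e14.5 library 4, 6, 7 or 8). It gave between 1 and 2 members lower in adults against P0 (2 without P0 library 1 or 10 or adult library 1 or 6), and between 0 and 1 lower in adults against e14.5 (1 without adult library 4, Slc17a6). No paired analysis was possible because the columns carry no replicate numbers that a label explains. Of the single-gene comparisons over settings other than leaving out 1 library, 1295 gave the same call, 20 gained one and 15 lost one. Of these settings, only quantile normalization and median centring could lose a call. The cause of these changes was not tested. The number of adult libraries, 6, the unknown depth of 23 libraries and the low levels of Vamp1, Rimbp2 and Pclo at e12.5, with medians of −0.28, 0.39 and 0.51, limit the precision.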
